A study of Homo sapiens with 34 samples.

Results

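Between the human hTERT-RPE1 lines induced for CCND1 knockdown and for CCND1 overexpression, 41 genes of the Fanconi anaemia pathway, homologous recombination, checkpoint signalling, base excision and mismatch repair were followed in 34 SLAM-seq libraries. The genes were chosen by name, with earlier results of these data known. Their reads were taken from the 3′ UTR intervals that list the gene as their only symbol. Each of the 41 is thus 1 of 19041 genes measured in this way. Of the 41 genes, 30 were lower in the knockdown line and 0 were higher, where 10.7% and 11.2% of 13165 genes tested were. The test of mRNA half-life between the lines called none of the 11 members that could be timed in every course, and 0% of 3314 genes. By role the 41 are 8 Fanconi core or associated genes, the 2 genes of the ID complex, 12 BRCA and recombinase genes, 6 genes of end resection and unwinding, 8 checkpoint genes, and 5 genes of base excision and mismatch repair.

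Both lines derive from hTERT-RPE1, retinal pigment epithelial cells immortalised with telomerase, and both carried a doxycycline-inducible shRNA directed at the 3′ UTR of CCND1, the gene of cyclin D1. The genotype label of the knockdown samples names the inducible ccnd1 knockdown alone, and that of the overexpression samples names it together with an inducible ccnd1 overexpression, a tagged CCND1 that the shRNA spares. Both were selected pools of cells rather than clones, both received 0.5 µg/mL doxycycline, and no line without induction is among the samples, so the comparison is between a pair of induced states. After 4 days of induction the cells took up 10 µM 4-thiouridine (s4U) over 24 h, and the chase in 1 mM uridine lasted up to 1440 min, whereas unlabelled cells were given uridine only. Read from the 3′ end after alkylation, a labelled uridine appears as a T>C conversion. Each line had 17 libraries in 2 courses, numbered as in the labels, with 7 and 10 libraries in courses 1 and 2 of the knockdown line and 8 and 9 in those of the overexpression line. The labels do not say that the courses were separate cultures, so p-values measure the spread between these courses, which may be technical. By the study's description, knockdown gave large cells that divide slowly and overexpression small ones.

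Libraries held 14712332 to 44480703 reads on 3′ UTR intervals. In 3 libraries the levels stood apart from the rest of their line, namely the 720 min library of overexpression course 1 (r = 0.945) and the unlabelled libraries of knockdown course 1 (r = 0.947) and overexpression course 1 (r = 0.954), and results are also given without the unlabelled and 720 min libraries. Reads on the native 3′ UTR of CCND1 were 140 and 157 CPM (reads relative to the library's reads on intervals that name 1 gene) in the knockdown courses and 53.5 and 62.5 CPM in the overexpression courses, and check neither label, because the shRNA is induced in both lines and the added CCND1 need not carry that UTR. Of the genes that mark retinal pigment epithelium, RPE65 and RLBP1 were near 0 (at most 0.332 and 1.07 CPM) and VIM, an intermediate filament of cultured cells, reached 5489 to 11447 CPM. MITF, a pigment cell transcription factor, and keratins KRT8 and KRT18 had 34.4 to 110, 66.8 to 743 and 217 to 731 CPM. These 3 of the 7 markers tested were higher in the knockdown line (log2 0.96, 0.92 and 0.63, adjusted p = 0.00184, 0.00308 and 0.00798). The other 4 were not called, and OTX2, BEST1 and PMEL among them had a log2 below 0 (OTX2 -0.82, adjusted p = 0.0974). BEST1 and PMEL were scarce, at no more than 0.738 and 1.14 CPM in any library. The median log2 over the 7 was 0.03. PTPRC and HBB, markers of blood cells, were at most 0.367 and 0 CPM, whereas CD68, a lysosomal protein used as a macrophage marker, was at 12.8 to 35 CPM and not called between the lines (log2 0.30, adjusted p = 0.152).

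When a replication fork meets a crosslink between the DNA strands, the Fanconi core complex attaches ubiquitin to the paired proteins FANCD2 and FANCI, which recruit nucleases to the lesion. The break that follows is trimmed by end resection and repaired on the sister chromatid with the help of BRCA1, BRCA2 and PALB2, while ATR and ATM signal the damage through CHEK1 and CHEK2. Transcription of many of these genes is known to rise toward S phase under E2F factors, which are released when cyclin D-dependent kinases act on the retinoblastoma protein.

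Because E2F binding letters are the feature that many genes of replication and repair share, the promoters of the members were searched on both strands for TTTGGCGC, TTTCGCGC, TTTCCCGC and TTTGCCGC. The promoters ran from 250 bases before to 50 after each start in RefSeq (GRCh38.p14), where 38 of the 41 genes had an entry, with 54 promoters between them. At least 1 of these letter strings stood in 10 of the 54 promoters, or 18.5%, in 9 genes, against 3.31% of all 35116 promoters and 4.71% of the promoters of genes tested for abundance. Among promoters of members lower in the knockdown line the share was 20.5% (8 of 39), and among those of members without a call it was 13.3% (2 of 15, both of PMS2). NF-Y letters (CCAAT) were found in 51.9% of the members' promoters, in 34.6% of all and in 34.6% of those of genes tested, with 46.2% for members called lower and 66.7% for those without a call. The CHR letters TTTGAA or TTCGAA were in 11.1% of the members' promoters, 16.4% of all and 12.3% of those of genes tested, with 12.8% for members called lower and 6.67% for those without a call. Such matches describe the sequence and are not sites shown to be bound. FANCA, FANCC, UNG and XRCC2 also held matches, which are not shown. Read levels of the 5 members shown are given further on. Their windows follow, read on the strand of the gene with the match in capitals.
FANCD2 (chr3:10026425-10026452, plus strand): gtcgggcctgGCGGGAAAgtcgaaaact
TOPBP1 (chr3:133661931-133661958, minus strand): cgcgcggttgGCGCGAAAgtcggttccc
EXO1 (chr1:241848198-241848225, plus strand): aaggtcagccTTTCGCGCgctgtgtagg
MSH6 (chr2:47783138-47783165, plus strand): tccccccagaTTTCCCGCcagcaggagc
PMS2 (chr7:6009132-6009159, minus strand): gggaagtattTTTGCCGCcccgcccgga
The first 4 belong to genes that were lower in the knockdown line and the last to a gene that was not called.

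Read levels of the lines were compared on the counts of each course, added up over the 6 samples that all courses have (24 libraries), scaled as TMM-normalised CPM and tested with edgeR's quasi-likelihood test over 13165 genes, with p-values adjusted by Benjamini-Hochberg. All 41 members passed the filter on low counts. Of these, 30 were called lower in the knockdown line and 0 higher, where 10.7% of all genes tested were called lower, 11.2% higher and 21.9% in either direction. The fitted log2 of knockdown over overexpression was below 0 for 37 members and under -1 for 12, with a median of -0.84 over the members and -0.01 over all genes tested. For 11 members every one of the 17 knockdown libraries lay below every one of the 17 overexpression libraries (FANCC, FANCE, FANCD2, FANCI, BRCA1, BARD1, RBBP8, BLM, CHEK1, TOPBP1 and XRCC1), a separation seen in 1.12% of genes tested. Without the unlabelled and 720 min libraries 31 members were lower and 1 higher, with 3953 of 12801 genes called in either direction. In these bulk samples, fewer cells in a phase or of a type and less RNA per cell cannot be told apart. The plot of the difference by gene shows each member in its role group.

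**Figure D1:**
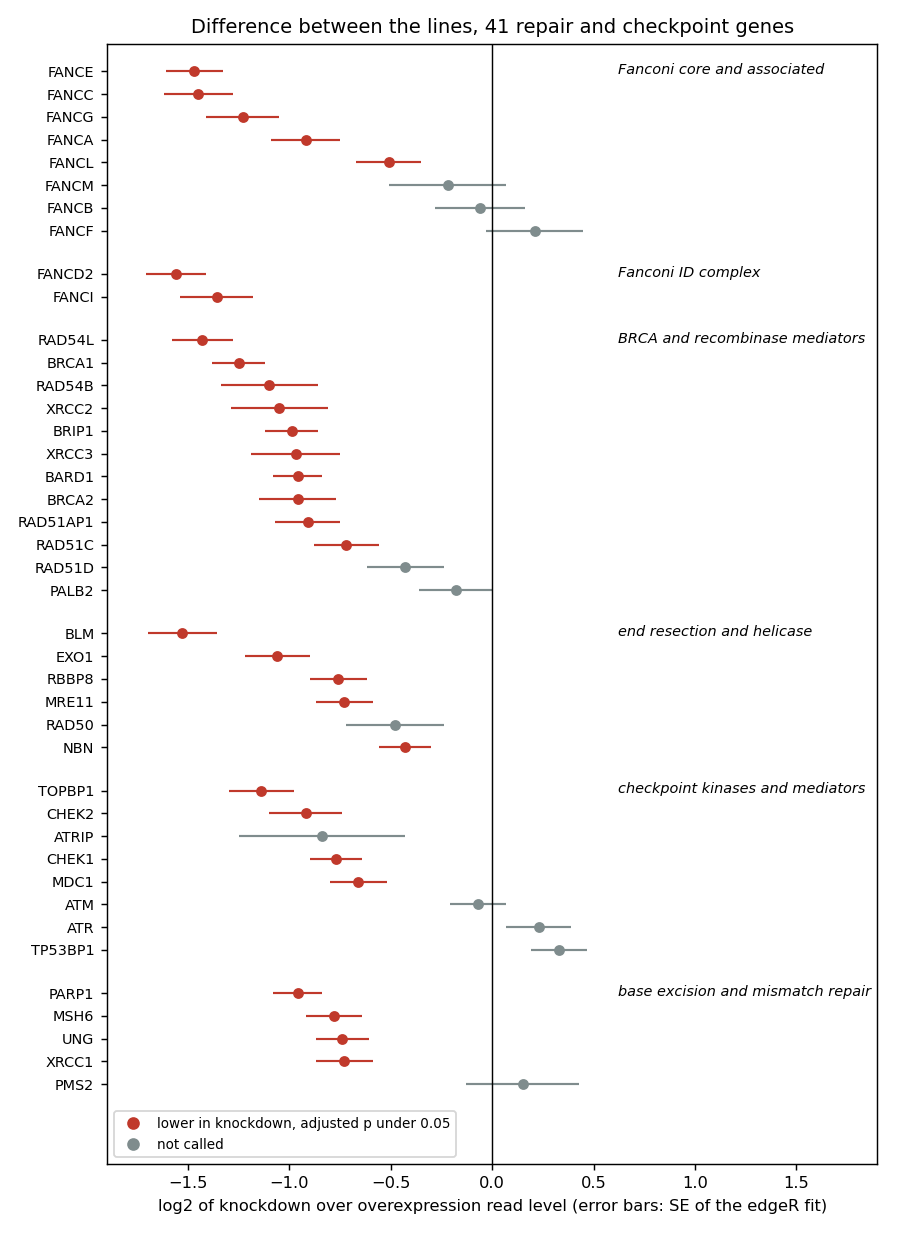
Log2 of the knockdown over the overexpression read level for each of the 41 genes (horizontal axis), ordered within role groups, with bars for the SE of the edgeR fit on 2 courses per line. The 30 genes called lower (red) lie between -1.56 and -0.43, and the 11 without a call (grey) between -0.84 and 0.33.

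In the Fanconi core group 5 of the 8 genes were lower in the knockdown line and 3 were not called (median log2 -0.72). FANCE, which bridges the core complex to FANCD2, had 14.6 and 16.4 CPM in knockdown courses 1 and 2 against 43.8 and 41.2 CPM in overexpression courses 1 and 2. The libraries did not overlap, with 10.5 to 23.4 CPM in knockdown and 27.3 to 56.4 CPM in overexpression. The difference was -1.47 on the log2 scale (SE 0.14, adjusted p = 0.000146), and the reads fell on 1 interval that covers the end of the coding sequence and the 3′ UTR (chr6:35466244-35467103, hg38). FANCC, a further core subunit, had 6.35 and 6.29 CPM in the knockdown courses against 16.5 and 17.8 CPM, again with no overlap between libraries (log2 -1.45, SE 0.17, adjusted p = 0.000328). FANCG, which scaffolds the core complex with FANCA, had 26.6 and 33.9 CPM against 58.4 and 82.1 CPM (log2 -1.23, SE 0.18, adjusted p = 0.00117). Here the single libraries did overlap, since FANCG was at 16.4 and 30.4 CPM in the 720 min and unlabelled libraries of overexpression course 1, both of which stood apart, and at up to 44.4 CPM in the knockdown libraries.

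The core group was not uniform. FANCA was lower by a log2 of -0.92 (adjusted p = 0.00356) and FANCL, the ubiquitin ligase subunit, by -0.51 (adjusted p = 0.0386), a call that was lost when knockdown course 1 or either overexpression course was left out (adjusted p = 0.236, 0.135 and 0.0802). FANCB, encoded on the X chromosome, had 5.34 and 5.37 CPM in the knockdown courses against 5.43 and 5.67 CPM in the overexpression courses. Its levels were nearly the same in all 4 courses (log2 -0.06, SE 0.22, adjusted p = 0.872), although the 2 intervals that carry most of its reads had log2 ratios of course means, with 0.5 CPM added, of 0.32 and -0.42. FANCF, an adaptor of the core complex, and FANCM, a translocase that anchors it to DNA, were at 4.68 to 6.85 CPM and 4.78 to 8.66 CPM in the courses and were not called (log2 0.21 and -0.22, adjusted p = 0.578 and 0.644).

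Both genes of the ID complex, the target of the core ligase, were lower in the knockdown line. FANCD2 had 15.3 and 13.5 CPM in the knockdown courses and 44 and 40.5 CPM in the overexpression courses, with libraries from 9.84 to 19.3 CPM and from 33.2 to 53.3 CPM. Its log2 difference of -1.56 (SE 0.15, adjusted p = 0.000122) was the largest among the members, and 92.7% of its signal came from an interval that holds the end of the coding sequence and 3′ UTR (chr3:10101188-10101930). FANCI had 28 and 40.6 CPM against 94.8 and 79.3 CPM (log2 -1.36, SE 0.18, adjusted p = 0.000688). For both genes the highest knockdown library lay below the lowest overexpression library, as the plot of levels by library shows for FANCD2.

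**Figure D2:**
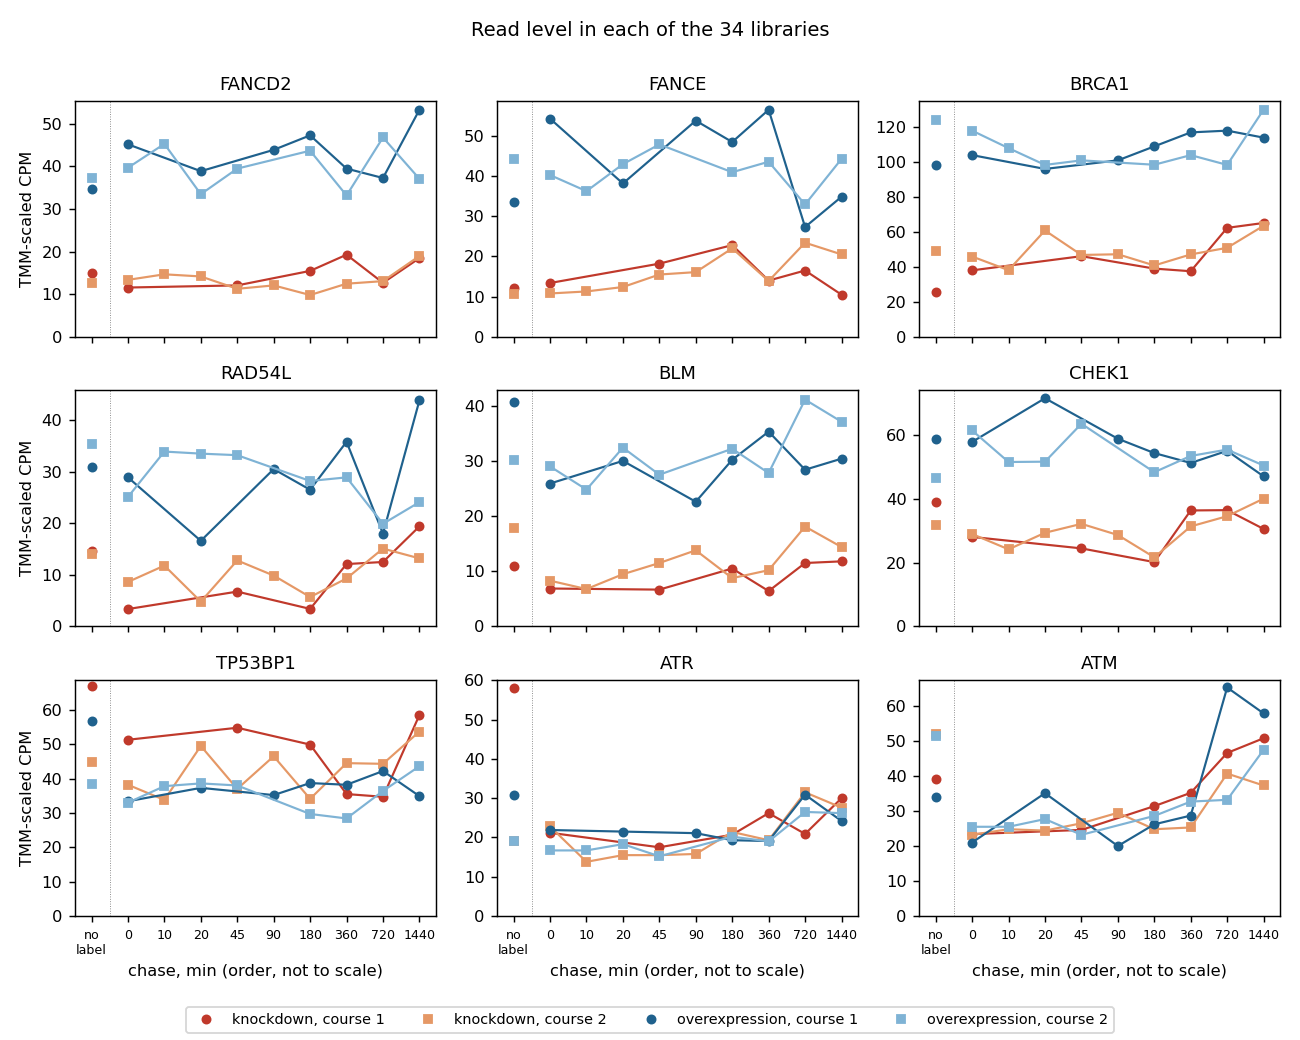
TMM-scaled CPM (vertical axis, from 0) of 9 genes in each of the 34 libraries, by chase time in order (horizontal axis, not to scale), with 1 symbol per library and a line per course. FANCD2, FANCE, BRCA1, BLM and CHEK1 show no overlap between the lines, RAD54L overlaps in 1 knockdown library, and TP53BP1, ATR and ATM lie together in both lines.

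Among the 12 BRCA and recombinase genes, 10 were lower in the knockdown line (median log2 -0.97). RAD54L, a translocase of strand exchange, had 10.9 and 11 CPM in the knockdown courses against 31.2 and 27.2 CPM in the overexpression courses (log2 -1.43, SE 0.15, adjusted p = 0.000224), with 16 of 17 knockdown libraries below all overexpression libraries. BRCA1, a ubiquitin ligase that acts in resection and strand exchange, had 44.6 and 49.8 CPM against 110 and 113 CPM (log2 -1.25, SE 0.13, adjusted p = 0.000173). The lines were apart in every BRCA1 library, 25.6 to 65.2 CPM against 96.1 to 130 CPM. Most BRCA1 signal (79.3%) lay on an interval of coding end and 3′ UTR (chr17:43044295-43045802), where the log2 ratio of course means was -1.12. A further 19.6% lay on an interval annotated over its whole length both as coding sequence and as UTR (chr17:43091435-43094860), where the ratio was -1.67. RAD54B, a relative of RAD54L, was scarce, at 4.09 and 3.53 CPM against 9.21 and 7.03 CPM (log2 -1.10, SE 0.24, adjusted p = 0.00843). Its libraries overlapped, and a further 51.5% of the reads of its intervals fell on ones shared with FSBP, which were left out.

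PALB2, which links BRCA1 to BRCA2, had 14.6 and 10.9 CPM in the knockdown courses and 13.9 and 14.8 CPM in the overexpression courses. The smallest difference of the group was thus in PALB2 (log2 -0.18, SE 0.18, adjusted p = 0.537), with course values that overlapped. BARD1, the partner of BRCA1, was lower by a log2 of -0.96, BRCA2 by -0.96, the helicase BRIP1 by -0.99 and RAD51AP1, a factor of strand pairing, by -0.91. Of the genes whose proteins assist strand exchange in small complexes, XRCC2, XRCC3 and RAD51C were lower (log2 -1.05, -0.97 and -0.72) and RAD51D was not called (log2 -0.43, adjusted p = 0.134), though without the unlabelled and 720 min libraries it was lower (log2 -0.52, adjusted p = 0.024). XRCC2 was called on 3.09 to 7.71 CPM per course, and lost the call without overexpression course 2 (adjusted p = 0.0643).

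In the group of resection and unwinding, 5 of 6 genes were lower in the knockdown line (median log2 -0.75). BLM, the RecQ helicase that dissolves joint molecules, had 9.63 and 12.8 CPM in the knockdown courses against 30.8 and 33.5 CPM, and 6.42 to 18.1 CPM against 22.6 to 41.1 CPM by library (log2 -1.53, SE 0.17, adjusted p = 0.000266). EXO1, the exonuclease of long-range resection, had 14.4 and 14.3 CPM against 32.5 and 26.7 CPM (log2 -1.06, SE 0.16, adjusted p = 0.0012). All but 1 knockdown library of EXO1 lay below the overexpression libraries. RBBP8, known as CtIP and the cofactor that starts resection, had 23.7 and 21.1 CPM against 38.2 and 37.4 CPM, with no overlap (log2 -0.76, SE 0.14, adjusted p = 0.00391). The MRN complex, which tethers ends and starts the nick, showed the smaller differences. MRE11, its nuclease, was lower by a log2 of -0.73 (adjusted p = 0.00407). NBN had 50.3 and 44.9 CPM against 65.4 and 61.9 CPM (log2 -0.43, SE 0.13, adjusted p = 0.0425), and was no longer called when any 1 course was left out (adjusted p = 0.0559 to 0.232).

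RAD50, the third MRN subunit, was not called (log2 -0.48, SE 0.24, adjusted p = 0.191), with 121 and 93.9 CPM in the knockdown courses and 192 and 105 CPM in the overexpression courses. The high value of overexpression course 1 came from its 720 min and unlabelled libraries, at 587 and 313 CPM, both of which stood apart. Without overexpression course 2 the RAD50 difference was -0.84 (adjusted p = 0.00294), and without knockdown course 1 it was -0.68 (adjusted p = 0.0312), settings that both keep those 2 libraries. Without overexpression course 1 it was 0.03 (adjusted p = 0.944), and without the unlabelled and 720 min libraries of all courses 0.11 (adjusted p = 0.596), so its direction did not hold without them. Its 3 main intervals lay wholly in exons annotated both as coding sequence and as UTR. They overlapped a further annotated gene on the same strand, so RAD50 reads cannot be told apart from those of that gene.

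Of the 8 checkpoint genes, 4 were lower in the knockdown line and 4 were not called (median log2 -0.72). TOPBP1, the activator of ATR, had 16.6 and 19.6 CPM in the knockdown courses against 43.6 and 35.6 CPM in the overexpression courses (log2 -1.14, SE 0.16, adjusted p = 0.000866), and its libraries did not overlap. CHEK2, the effector kinase of ATM, had 6.51 and 6.69 CPM against 11.5 and 13.3 CPM (log2 -0.92, SE 0.18, adjusted p = 0.00551). CHEK1, the effector kinase of ATR, was lower by a log2 of -0.77 with no overlap between libraries (20.2 to 40.1 CPM against 46.6 to 71.6 CPM), and MDC1, the scaffold at marked chromatin, by -0.66. The apical kinases were not called in either direction. ATM had 37.4 and 33.8 CPM against 37.6 and 36.7 CPM (log2 -0.07, SE 0.14, adjusted p = 0.755), and ATR had 29.3 and 23.6 CPM against 23.2 and 21.6 CPM (log2 0.23, adjusted p = 0.345). ATRIP, the partner of ATR, was the scarcest member, at 1.04 and 1.58 CPM against 2.05 and 2.60 CPM (log2 -0.84, SE 0.41, adjusted p = 0.17), and 91.7% of the reads of all its intervals fell on ones shared with TREX1.

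TP53BP1, which holds back resection, was the member with the highest log2 difference, at 49.9 and 43.4 CPM in the knockdown courses and 38.6 and 35.2 CPM in the overexpression courses. Both knockdown courses were above both overexpression courses, and the difference was not called (log2 0.33, SE 0.14, adjusted p = 0.128). Without the unlabelled and 720 min libraries TP53BP1 was called higher in the knockdown line (log2 0.39, adjusted p = 0.0317).

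Of the base excision and mismatch repair genes, 4 of 5 were lower in the knockdown line (median log2 -0.74). PARP1, the sensor of strand breaks, had 60.6 and 61.6 CPM in the knockdown courses against 115 and 122 CPM (log2 -0.96, SE 0.12, adjusted p = 0.000507). MSH6, a mismatch sensor, had 143 and 139 CPM against 266 and 214 CPM (log2 -0.78, SE 0.14, adjusted p = 0.00306), and reached 499 CPM in the 720 min library of overexpression course 1. In both genes the courses of the lines were well apart while a few single libraries overlapped. UNG, which removes uracil from DNA, had 46.6 and 46 CPM against 76.2 and 77 CPM (log2 -0.74, SE 0.13, adjusted p = 0.00248). XRCC1, the scaffold of single-strand break repair, was lower by -0.73, though only 23% of its main interval lies on an annotated exon. PMS2 had 3.56 and 3.69 CPM against 2.93 and 3.56 CPM (log2 0.15, SE 0.28, adjusted p = 0.755). With 65.4% of its reads multimapped, PMS2 cannot be separated here from its near-identical copies.

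Other genes of the same and neighbouring pathways, in lists chosen with earlier results of these data known, were counted in the same fit. Among 40 other Fanconi and recombination genes 21 were lower in the knockdown line and 0 higher (median log2 -0.57, range -1.48 to 0.41). The difference was largest in EME1, a nuclease subunit, at -1.48 (adjusted p = 0.000649), and closest to 0 in FAAP20, a core complex partner, at 0.02 (adjusted p = 0.95). Of 19 other checkpoint genes 14 were lower and 0 higher (median -0.76), with PKMYT1, an inhibitory kinase of CDK1, at -1.26 (adjusted p = 0.00115) and HUS1, of the 9-1-1 clamp, at -0.12 (adjusted p = 0.661). Of 12 end joining genes 1 was lower and 0 higher (median -0.24), and the largest and smallest differences, DCLRE1C at -0.53 and LIG4 at -0.02, were not called (adjusted p = 0.0685 and 0.953). Nucleotide excision repair had 4 lower and 2 higher of 18 (median -0.12), with ERCC6, the transcription-coupled repair factor, higher in the knockdown line at 1.24 (adjusted p = 0.000637) and DDB1 and GTF2H3 both at -0.08 (adjusted p = 0.691 and 0.689). Of 20 other mismatch and base excision genes 7 were lower and 2 higher (median -0.37), PARP2 having the largest difference at -1.13 (adjusted p = 0.00141) and MLH3 the smallest at 0.09 (adjusted p = 0.847). Whether these shares differ from that of the 41 genes was not tested.

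Proliferation markers moved with the members. All 10 of them (MKI67, TOP2A, PCNA, CCNA2, CCNB1, CDK1, BUB1, PLK1, MCM2 and MCM6) were lower in the knockdown line (median log2 -1.03, from MCM2 at -1.42 to PLK1 at -0.62). Their summed level was 801 to 1899 CPM in the knockdown libraries and 2156 to 2676 CPM in the overexpression libraries, with no overlap and no marker at 0. As the median relative log2 level per library the markers did overlap, at -0.88 to 0.46 in knockdown and 0.40 to 0.75 in overexpression. The part of the fraction of cycling cells in the lower levels of the repair genes was not tested.

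The difference between the lines was smaller at the late chase times. At each time point shared by all courses, the median log2 of knockdown over overexpression (on CPM + 0.5) over the 41 genes was -0.99 in the unlabelled libraries, -1.03 at 0 min, -0.91 at 180 min, -0.83 at 360 min, -0.63 at 720 min and -0.59 at 1440 min, while the median over all genes stayed between 0.00 and 0.02. Both knockdown libraries lay below both overexpression libraries for 32 members at 0, 180 and 360 min, where 25.4%, 27.2% and 25.6% of genes tested did. In the unlabelled libraries they did for 27 members and 16.6% of genes, at 720 min for 26 members and 21.2% of genes, and at 1440 min for 25 members and 24.2% of genes. The median level of the members against their mean over all libraries was 0.36 to 0.52 in the 17 overexpression libraries at every time. In the knockdown line it was -0.54 to -0.35 in the 13 unlabelled and 0 to 360 min libraries and -0.18 to 0.03 in the 4 libraries at 720 and 1440 min. The narrower gap thus lay on the side of the knockdown line, as the plot of median level by library shows. The summed level of the proliferation markers in the same 4 late knockdown libraries was 1024 to 1517 CPM (median 1239 CPM). It overlapped the 801 to 1899 CPM (median 941 CPM) of the other 13. From 0 to 1440 min all 10 markers had a log2 change above 0 (median 0.27), and 2 were called higher, where 2.35% of genes were. The change was larger in the knockdown line for all 10 (median log2 difference 0.48), with 0 called, where 0.0163% of genes were. The part of the markers in the late values was not tested. Restricted to the 1440 min libraries the test between the lines called 12 members lower (median log2 -0.58) and 1020 of 11796 genes in either direction. On the 0 min libraries alone it called 23 members lower (median -1.06) and 1870 of 11805 genes.

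**Figure D3:**
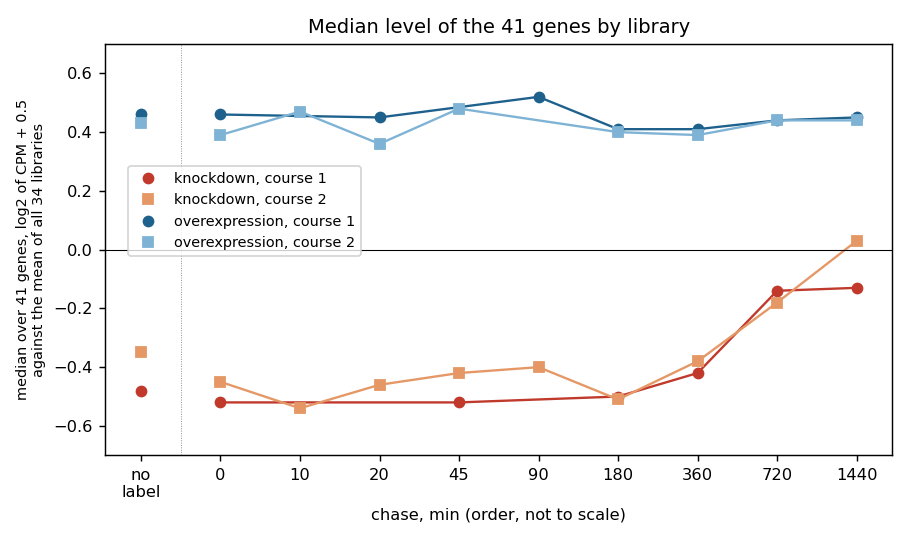
Median over the 41 genes of log2(CPM + 0.5) against the mean of all 34 libraries (vertical axis) for each library, by chase time in order (horizontal axis, not to scale). Overexpression libraries stay between 0.36 and 0.52, and knockdown libraries lie between -0.54 and -0.35 up to 360 min and between -0.18 and 0.03 at 720 and 1440 min.

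Gene by gene the change over the chase was mostly too small for the test. Levels at 1440 min were set against those at 0 min, 4 libraries against 4 with the line as a covariate, and 1 member was called higher and 0 lower, where 2.35% of 12280 genes tested were called higher, 2.24% lower and 4.59% in either direction. The median log2 change was 0.26 over the members and 0.00 over all genes. At an unadjusted p under 0.05, 13 members were higher and 1 lower, without a count over all genes to set beside them. In both knockdown courses 33 members were higher at 1440 than at 0 min, a pattern seen in 32% of genes tested, and in both overexpression courses 14 were, against 27.4% of genes. In all 4 courses 11 members were higher, against 12.8% of genes.

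ATM was the member called. Its level was 23.4, 23.2, 21.0 and 25.5 CPM at 0 min, given for knockdown before overexpression and by course number, and 50.8, 37.3, 57.9 and 47.5 CPM at 1440 min. ATM was therefore higher at 1440 min in 4 of 4 courses, and the time points did not overlap (log2 1.04, SE 0.16, adjusted p = 0.000111). At 720 min it was already at 46.6, 40.7, 65.3 and 33.2 CPM. The unlabelled libraries, collected with the 0 min libraries, had 39.1, 51.9, 34 and 51.3 CPM of ATM, all above the 4 labelled 0 min libraries. Over 12241 genes tested for the label, 0% were called and none of the members was, with ATM at a log2 of -0.91 (adjusted p = 0.889). At an unadjusted p under 0.05 the label test held 431 genes and 5 members, and DESeq2 called 2 genes and 0 members. The courses numbered 2 were also tested alone, without the unlabelled libraries that stood apart, on only 1 labelled and 1 unlabelled library per line. In that edgeR fit ATM was called lower with label (log2 -1.08, adjusted p = 0.00019), 1 of 67 genes called among 12475. Its reads came for the most part (86.6%) from the 3′ UTR at chr11:108365509-108369102.

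Next to ATM, RAD54L had 3.38, 8.63, 28.9 and 25.1 CPM at 0 min and 19.4, 13.2, 43.8 and 24.1 CPM at 1440 min, which did not pass the threshold (log2 0.86, adjusted p = 0.0601). FANCI went from 18, 25.5, 81.3 and 68.3 CPM to 36.8, 53.1, 75.9 and 84.4 CPM (log2 0.56, adjusted p = 0.0688). In both genes the knockdown courses were up and the overexpression courses mixed. The difference of the change between the lines was itself tested, and 0 members were called, where 0.0163% of 12280 genes were. At an unadjusted p under 0.05 it held 8 members and 721 genes, and DESeq2 called 0 members and 13 genes. The median of that difference was 0.31 over the members and 0.00 over all genes. A further 6 members (against 5.02% of genes tested) were higher at 1440 min in both knockdown courses and lower in both overexpression courses, namely FANCM, BARD1, RAD51AP1, EXO1, CHEK1 and XRCC1, with adjusted p-values for the difference of 0.98, 0.841, 0.8, 0.8, 0.842 and 1.

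Loss of the label was taken as the decay of mRNA made before the chase. The rate is a share of covered T bases, so a level that rises over the chase lowers it too, and no correction was made. From 0 to 1440 min 33 members rose in both knockdown courses and 14 in both overexpression courses. The T>C conversions of all members were first pooled and set over the covered T bases. At 0 min 0.834% and 0.909% of T bases were converted in the knockdown line (courses 1 and 2) and 0.941% and 0.968% in the overexpression line, against 0.00843% to 0.033% in the unlabelled libraries. Above that background, 35.4%, 34.7%, 34.3% and 27.5% of the 0 min value were left at 6 h, and 6.29%, 7.13%, 2.81% and 3.61% at 12 h. The pooled half-lives were 3.95 and 4.03 h in the knockdown line and 4.65 and 4.01 h in the overexpression line, which overlapped. All other genes, pooled in the same way, had 7.11 and 7.26 h in the knockdown courses and 6.18 and 6.02 h in the overexpression courses. In each of the 4 courses the members' pool thus decayed sooner than the pool of all other genes, which is weighted toward the genes with most reads. The plot of pooled decay gives the course of both.

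**Figure D4:**
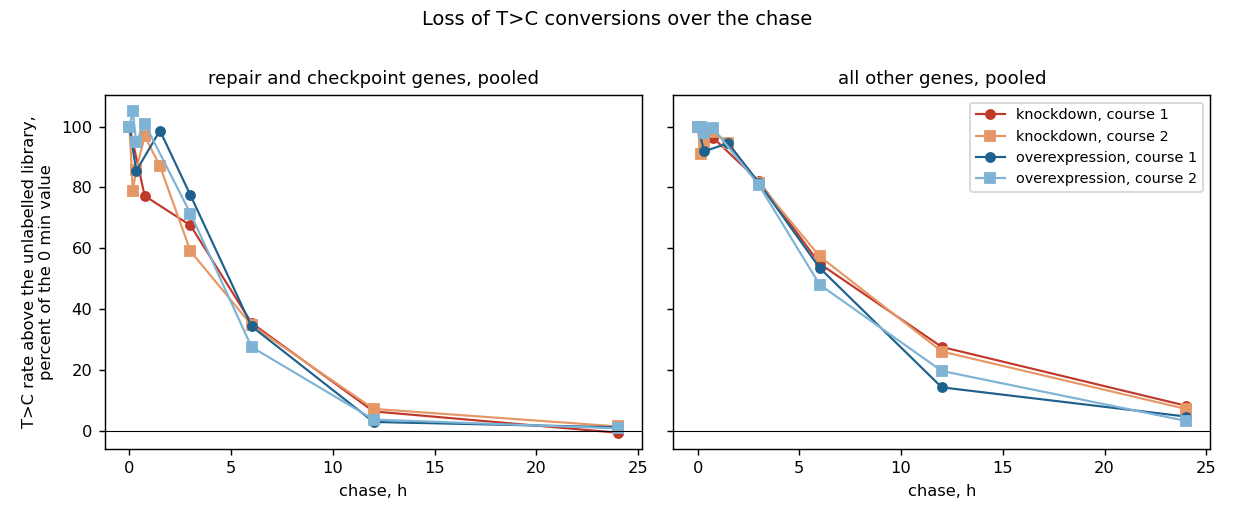
T>C rate above the unlabelled library, as percent of the 0 min value (vertical axis), against hours of chase (horizontal axis) in each of the 4 courses, for the 41 genes pooled (left) and all other genes pooled (right). At 12 h the members had 2.81% to 7.13% left and the other genes 14.2% to 27.5%.

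Single half-lives were fitted to exp(-Kt) and kept at an R2 of at least 0.6, which left 25 and 16 members in courses 1 and 2 of the knockdown line and 24 and 30 in those of the overexpression line. In all 4 courses 11 members had one, 7 had none in any course, and the others had 1 to 3. Over the 11 the mean of the 4 courses ran from 2.54 h for UNG to 6.44 h for PARP1, with a median of 3.87 h, against 4.91 h over all 3314 genes timed in all courses. PARP1 was the most even, at 6.45 and 6.60 h in the knockdown courses and 6.66 and 6.07 h in the overexpression courses. UNG had 3.58 and 1.69 h against 3.81 and 1.09 h, so that its courses numbered 1 were both longer than those numbered 2.

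None of the 11 half-lives differed between the lines by limma with Benjamini-Hochberg adjustment, nor did any of the 3314 genes (0% called). At an unadjusted p under 0.05 there were 256 genes and 1 member, RAD50, which had 4.08 and 5.87 h in the knockdown courses and 2.68 and 2.86 h in the overexpression courses (log2 0.82, SE 0.32, adjusted p = 0.641). BRCA1 had the largest difference, at 1.13 and 4.26 h against 5.26 and 4.61 h (log2 -1.17, SE 0.61, adjusted p = 0.641). That value rests on knockdown course 1, whose half-life stood far below the other 3. As log2 of knockdown over overexpression, the half-life ratio had a median of 0.26 over the 11 members and 0.20 over all such genes. The direction of the members' median did not hold: it was -0.09 without knockdown course 1, -0.03 without overexpression course 2 and -0.11 over 30 members with no R2 minimum. For 3 members both knockdown courses were longer than both overexpression courses and for 2 both were shorter. These orders were not counted over all 3314 genes, so they show nothing particular to the members. The remaining members timed in all courses were FANCG (mean 6.02 h), MDC1 (5.25 h), BRIP1 (4.2 h), RBBP8 (4 h), XRCC1 (3.82 h), BARD1 (3.71 h) and MSH6 (3.30 h). Their courses spread by 0.687 to 1.46 h (SD, n = 4), as the plot of half-lives shows.

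**Figure D5:**
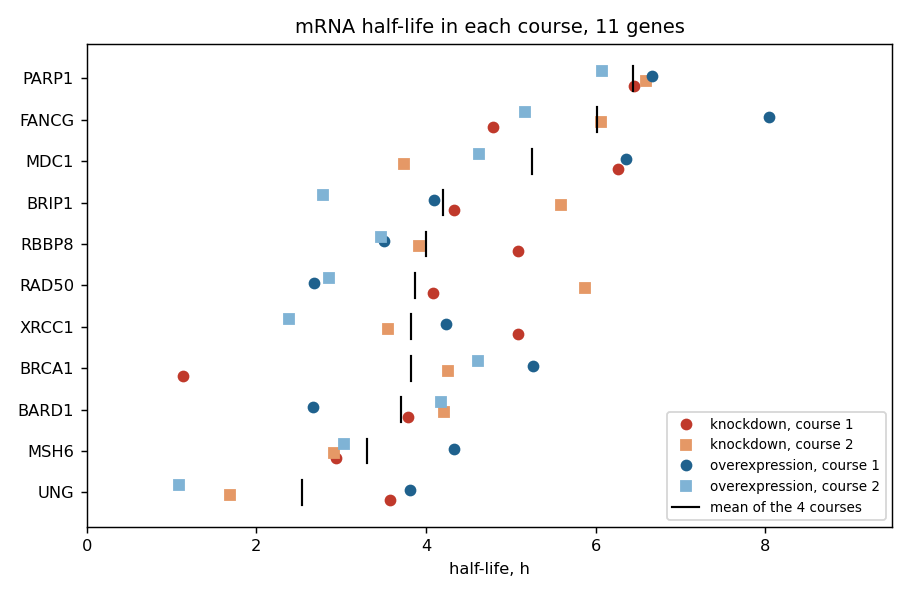
Half-life in hours (horizontal axis, from 0) of the 11 genes timed in all 4 courses, ordered by their mean (black line), with 1 symbol per course. The knockdown and overexpression symbols are mixed for most genes, and means run from 2.54 h (UNG) to 6.44 h (PARP1).

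The share of converted T bases at 0 min, after 24 h of label, depends only in part on how much of an mRNA was made within that time. Mean half-lives of the 11 members timed in all courses were 2.54 to 6.44 h, well under 24 h, so it cannot be read as a production rate. The share could be compared for 34 members among 8842 genes, and 0 members and 0% of genes were called by limma with Benjamini-Hochberg adjustment. At an unadjusted p under 0.05 there were 547 genes and 2 members, FANCC (log2 -1.40, adjusted p = 0.739) and BRCA2 (log2 -0.84, adjusted p = 0.804). The median log2 of knockdown over overexpression was -0.11 over the members and -0.09 over all genes. In FANCC 0.319% and 0.282% of T bases were converted in the knockdown courses against 0.885% and 0.706% in the overexpression courses, values that rest on few reads because FANCC had no more than 9.36 CPM in any knockdown library.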

How the data were processed

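The deposited tables hold raw counts of reads, covered T bases and T>C conversions for each of 71668 annotated 3′ UTR intervals, made for the authors by a sequencing service with SLAMdunk 0.4.3 on hg38; their CPM column, deposited by the authors, is relative to mapped reads and served the half-life filter. The annotation's release was not given in the sources used here. A gene's intervals were those naming it alone (repeated symbols collapsed), and 1168 intervals naming several genes (2.28% to 2.74% of reads) were left out. For half-lives and label content, 7814 intervals with over 10% multimapped reads were left out too, PMS2 among them. Counting was by strand. Reads carry no molecular identifiers. The 41 members, their role groups, the other lists and the tests were chosen with earlier results of these data known.

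Counts were tested with edgeR 4.0.16 (TMM, filterByExpr, quasi-likelihood) in R 4.3.3, and log2 half-lives and log2 label contents with limma 3.58.1, each over all genes, with Benjamini-Hochberg adjustment and a threshold of 0.05. Abundance used counts summed per course over 24 libraries (unlabelled, 0, 180, 360, 720 and 1440 min), 2 courses against 2. CPM of single genes are TMM-scaled and relative to reads on intervals that name 1 gene. Half-lives followed the study's methods in part: at least 1 CPM, conversions over covered T minus the unlabelled library, at least 4 time points, R2 of at least 0.6. The study's filter on early time points with few labelled genes was not applied, and the multimapping filter stood in for its removal of multigene reads. Scripts were tested on simulated data. GENCODE annotation and RefSeq promoters gave features and sequences. DESeq2 1.42.0, other scalings, filters, libraries, courses and fits were alternatives. Values are given in full for the 3 largest and the smallest abundance difference of each role group, for members called in another test, and for the longest, shortest and most different half-lives. Other members were named after their values were seen. The numbers of courses were not shown to pair the lines, so the fits were not blocked.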

Additional observations from a re-analysis of the deposited data

How the results depend on the processing

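The count of members lower in the knockdown line (30) was 30 with DESeq2 or RLE factors, 31 without the low-count filter or without the unlabelled libraries, 30 of 40 without multimapped intervals, 23 on 0 min libraries, 12 on 1440 min libraries and 0 on unlabelled libraries, where 4 of all genes were called. Of all genes, 1414 of 13165 were lower in the unaltered test, 1738 with DESeq2 and 1402 with RLE factors. The number was 1701 of 16412 without the filter, 1814 of 13006 without the unlabelled libraries and 1339 of 12295 without multimapped intervals. On the 0 min and 1440 min libraries it was 924 of 11805 and 445 of 11796. The members' median log2 (-0.84) was -1.06, -0.58 and -1.0 on the 0 min, 1440 min and unlabelled libraries. It was -0.87 without multimapped intervals and -0.77 with intervals shared between genes, an alternative chosen after seeing the data. Leaving out 1 course, which leaves a single course in its line, gave medians of -0.82 to -0.76. The count of members higher (0) was 1, TP53BP1, without the unlabelled and 720 min libraries. With the replicate number as a replicate block it was 1, with 32 lower and a median of -0.86. That fit called 5251 genes in either direction, against 2885 without the replicate block. The difference of course 1 from course 2, taken per gene in each line, correlated between the lines at r = 0.274. There were only 2 numbers. No member changed direction in a called value.

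The 1 member higher over the chase, ATM, was joined by MSH6 with DESeq2 (2; 838 of 12041 genes called), by FANCI and RAD54L without a filter (3; 796 of 15106), by FANCI with each course as a replicate block (2; 773 of 12280), and by FANCI or RAD54L without an overexpression course (1 to 2 over courses left out), where 564 of 12280 genes were called in the unaltered test. The label test called 1 member, ATM, without both courses numbered 1 (67 of 12475 genes), on only 1 labelled and 1 unlabelled library per line. No setting called a member for the chase difference, the half-life or the label content. The median log2 half-life ratio (0.26) was -0.11 with no R2 minimum (30 members), 0.65 from 180 min on, -0.06 on the share of reads with a conversion, and -0.09 to 0.11 with a course left out. That of label content (-0.11) was -0.20 to -0.07 with a course left out. The cause of these shifts was not tested. With 2 courses per line, small differences may not have been detectable.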
